A study of Mus musculus with 6 samples.

Results

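The genes described here are 10 genes of insulin-like growth factor (IGF) signalling. They are the ligand gene Igf1, the receptor gene Igf1r, the docking protein genes Irs1 and Irs2, and the IGF binding protein genes Igfbp2 to Igfbp7. They were taken by symbol from a count table of 16982 genes, each matched 1 row, and all 10 passed the filter on low counts. RNA was sequenced from 3 WT and 3 Rnf20-/- libraries of C57BL/6 reprogrammable cells on day 3 of reprogramming. These are mouse embryonic fibroblasts (MEF) transduced with retroviruses for OCT4, SOX2, KLF4 and C-MYC, and the labels give all 6 samples as untreated. Rnf20 encodes an E3 ligase for the monoubiquitination of histone H2B. According to the methods the knockout was made in MEF carrying Rnf20 Flox/Flox and a ubiquitous tamoxifen-inducible Cre by adding 4-OH tamoxifen. The sources used here do not state whether the WT cells carried the Flox or Cre alleles or received the drug. The methods also place infected cells on mitomycin-C treated MEF feeders, and whether feeder RNA entered these libraries is not stated.

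IGF1 and IGF2 are secreted growth factors that act through IGF1R, a receptor tyrosine kinase. The active receptor phosphorylates IRS1 and IRS2, which recruit phosphoinositide 3-kinase (PI3K). AKT then activates mTOR signalling and keeps FOXO transcription factors out of the nucleus. The IGF binding proteins are secreted too, and they hold the ligands in the medium or matrix, block them or release them after cleavage by proteases. Fibroblasts make both ligands and most binding proteins themselves, so a culture can hold much of the axis.

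The libraries held 20545442 to 21746898 counts. Rnf20 fell from 106 ± 0.780 to 17.9 ± 1.30 CPM (CPM, library-size scaled counts after TMM normalization, mean ± SD, n = 3 each, SE below being the standard error of a log2 fold change), which fits the labels. All 10 fibroblast markers were detected in every library, with Thy1 and Pdgfra lower in knockout cells past an edgeR adjusted p of 0.05. Over all genes tested 33.0% passed this threshold. Among these markers 3 were lower and 2 higher when knockout replicate 3 was left out, where 48.1% of all genes passed. Knockout replicate 3 stood apart from its group. A chi-square statistic of counts per gene was 92.4 and 101 between it and the other knockout replicates, against 6.04 to 8.91 within all other pairs of one genotype. On 4 Y-linked genes together, knockout replicates 1 and 3 held 0 and 1 counts and the other libraries 4774 to 5608. In a fit with a term for these transcripts, the genotype estimate thus compares only knockout replicate 2 with the WT libraries. Because knockout replicate 3 stood apart, the 10 genes and the genes named from other lists are given with and without it. The labels do not say whether the 3 samples of a genotype came from separate cultures, so the p-values measure the spread between these samples only. By the Y-linked counts, knockout replicate 2 was not drawn from the same cells as knockout replicates 1 and 3. Among the WT samples, and between knockout replicates 1 and 3, the source is not given and the spread may be technical.

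Knockout cells held less Igf1 and more Igfbp3 mRNA than WT cells, and these were the 2 of the 10 genes past an adjusted p of 0.05. Among all 13386 genes tested 33.0% passed this threshold, 16.6% lower and 16.4% higher. At the thresholds of the study (FDR under 0.01, a change of more than 2-fold in either direction, mean FPKM above 1) edgeR called 0 of the 10, against 3.59% of all genes, 2.08% lower and 1.50% higher. DESeq2 and edgeR's exact test also called 0 at these thresholds, and 4 of the 10 had an unadjusted p under 0.05 in each test. Without knockout replicate 3, 2 genes were lower and 3 were higher at an adjusted p under 0.05, where 48.1% of 13529 genes passed, 24.2% lower and 23.9% higher. These 5 were Igf1, Igfbp3, Igfbp5, Igfbp7 and Irs1. The genotypes did not overlap for 4 of the 10 (Igf1, Igfbp3, Igfbp5 and Igfbp7), against 54.8% of all genes, and knockout replicates 1 and 2 alone did not overlap WT for 5, with Irs1 added, against 67.1%. The median log2 fold change was -0.036 over the 10 genes and -0.00032 over all genes tested.

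**Figure D1:**
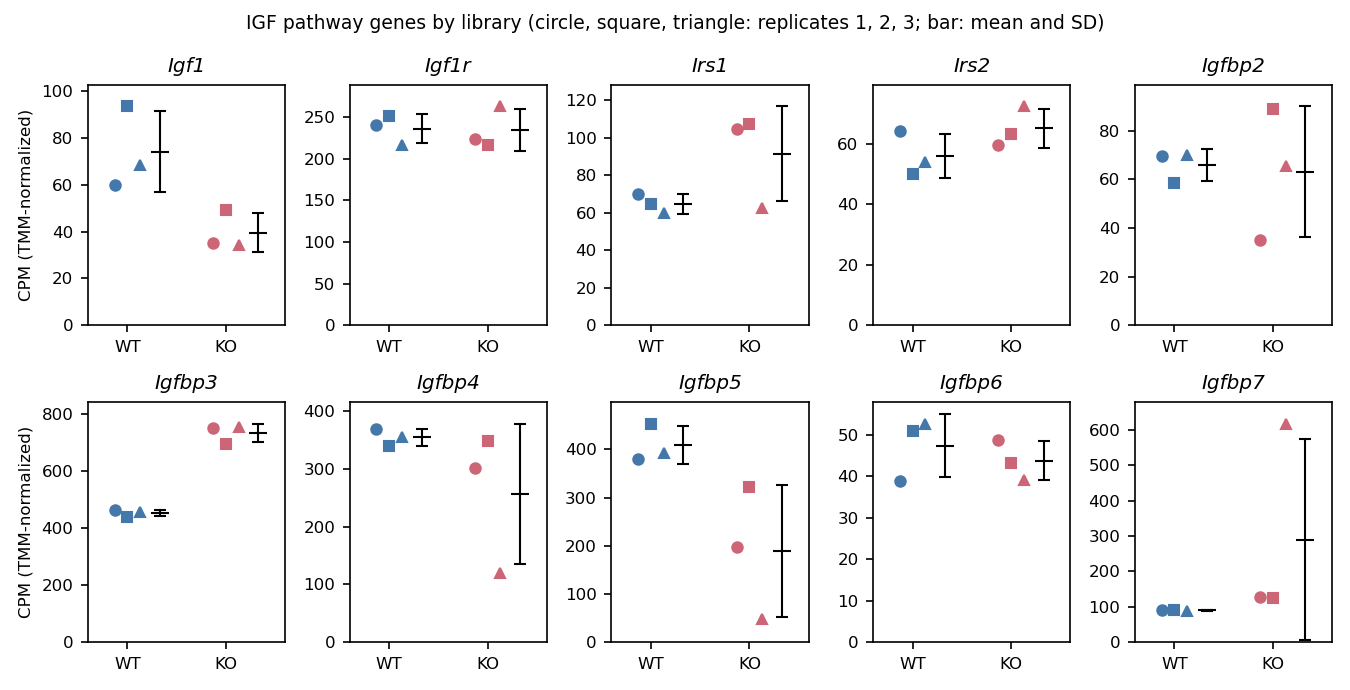
TMM-normalized CPM (y axis, from 0, own scale in each panel) of the 10 genes in WT (blue) and Rnf20 knockout (red) libraries, with circles, squares and triangles for replicates 1, 2 and 3 and black bars for the mean and SD of 3 libraries. Igfbp3 is tight in both genotypes, whereas the triangle of knockout replicate 3 lies far from the other knockout libraries in Igfbp4, Igfbp5 and Igfbp7.

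Levels of different genes were compared per length, with the FPKM values that the authors computed. In WT libraries Igfbp3 was the most abundant of the 10 (208 to 218 FPKM), followed by Igfbp4 (110 to 124) and Igfbp7 (99.3 to 102). Igfbp5 (57.4 to 68.9 FPKM), Igfbp2 (49.4 to 62.0) and Igfbp6 (38.8 to 55.3) came next, with overlap between neighbours in this order. Igf1r (19.3 to 22.0 FPKM) and Igf1 (15.2 to 22.0) could not be separated from one another, and neither could Irs2 (8.14 to 10.3) and Irs1 (7.05 to 8.17). In WT cells the mRNA of each binding protein was thus above that of the receptor and its docking proteins in every library.

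Igf1 encodes the ligand. In GRCm38 it spans 87858265 to 87937042 of chromosome 10 (plus strand). The WT libraries held 60.1, 93.5 and 68.6 CPM (replicates 1 to 3) and the knockout libraries 35.3, 49.4 and 34.1. Even the highest knockout value was under the lowest WT value, an order seen in 28.2% of all genes. Igf1 fell from 74.1 ± 17.4 to 39.6 ± 8.52 CPM (mean ± SD, n = 3 each), a log2 fold change of -0.90 (SE 0.209, edgeR adjusted p = 0.0201 by the quasi-likelihood test and Benjamini-Hochberg). Without knockout replicate 3 it was -0.80 (edgeR adjusted p = 0.00451). DESeq2 gave the lowest adjusted p of the alternative fits, 0.000419. The edgeR adjusted p was 0.0642 without WT replicate 2, 0.0645 without WT replicate 3 and 0.0526 without knockout replicate 1. With a term for the Y-linked transcripts, where only knockout replicate 2 is compared with WT, the log2 fold change was -0.58. Macrophages also make IGF1, and the summed CPM of 10 macrophage markers was 47.8, 95.9 and 77.6 (WT replicates 1 to 3) and 81.6, 53.0 and 252 (knockout replicates 1 to 3). Of the 9 markers tested 0 passed an adjusted p of 0.05 in edgeR's test and 1 had an unadjusted p under 0.05, and Ptprc and Csf1r were at 1.14 to 12.2 CPM in all libraries. The part of such cells in the result was not tested. In bulk RNA, fewer cells that express a gene and less RNA per cell cannot be told apart.

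The FPKM of Igf1 gave a smaller difference, with a mean of 19.7 in WT and 12.1 in knockout cells, a ratio of 0.616 against a fold change of 0.535 from the counts. Relative to CPM per kilobase of the gene length in the count table, its FPKM was 1.93 to 2.71 times as high and varied between libraries, while that of Igf1r was 1.09 to 1.12 times as high. The annotation lists 8 transcripts of Igf1.

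IGF2, the other ligand, was far more abundant at the mRNA level. Igf2 held 490, 502 and 492 FPKM (WT replicates 1 to 3) and 582, 803 and 230 FPKM (knockout replicates 1 to 3). Its knockout libraries thus lay on both sides of WT, with a log2 fold change of 0.15 (SE 0.417, edgeR adjusted p = 0.799). Without knockout replicate 3 it was 0.53 (edgeR adjusted p = 0.00203). Ins1, Ins2 and Igfbp1 were not analysed here, and Igfals, whose product joins IGFBP3 and IGF in the circulation, held at most 0.618 CPM in any library.

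Igf1r encodes the signalling receptor and lies on the plus strand of chromosome 7 (67952827 to 68233668). Its CPM was 240, 251 and 217 in WT and 223, 216 and 263 in knockout replicates 1 to 3, with overlap of the genotypes. The log2 fold change was -0.010, with a 95% interval of -0.25 to 0.23 (edgeR adjusted p = 0.943). A change of the receptor mRNA beyond this interval was not seen, the estimate was -0.099 without knockout replicate 3, and its sign turned when WT replicate 2, knockout replicate 1 or knockout replicate 2 was left out.

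The related receptors were read beside it. Insr, the insulin receptor gene, held 61.9 to 67.3 CPM in WT and 64.6 to 79.0 CPM in knockout libraries (log2 fold change 0.16, edgeR adjusted p = 0.234). Knockout replicates 1 and 2 were above every WT library at 75.4 and 79.0 CPM, and without knockout replicate 3 Insr was higher by 0.24 on the log2 scale (edgeR adjusted p = 0.0109). Igf2r encodes the receptor that clears IGF2 and carries lysosomal enzymes. Igf2r held 1045, 995 and 992 CPM in WT and 1747, 1989 and 751 in knockout replicates 1 to 3. As for Igf2, knockout replicates 1 and 2 were above and knockout replicate 3 below every WT library. Its log2 fold change was 0.57 (edgeR adjusted p = 0.219) with all libraries and 0.89 without knockout replicate 3 (edgeR adjusted p = 4.94e-06).

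Irs1 and Irs2 encode the docking proteins that link the receptor to PI3K. Irs1 lies on the minus strand of chromosome 1 (82233101 to 82291416) and Irs2 on the minus strand of chromosome 8 (10984681 to 11008458). The bases before their RefSeq starts are shown because both paralogs and Igfbp2 carry the same letters there. The stretches are from the RefSeq promoter windows of GRCm38.p6 (250 bases before to 50 after the start), 5′ to 3′ on the strand of the gene, with the E-box letters CACGTG in capitals. An E-box is bound by MYC and related factors. The Irs1 stretch spans chr1:82291519-82291584 with the E-box 115 bases before the start, and the Irs2 stretch spans chr8:11008938-11009003 with the E-box 44 bases before the start. GENCODE places the start of Irs2 at 11008458, which is further from its E-box, and places were counted from RefSeq starts only. The Igfbp2 stretch (plus strand) spans chr1:72824308-72824373 with the E-box 142 bases before the start.
Irs1: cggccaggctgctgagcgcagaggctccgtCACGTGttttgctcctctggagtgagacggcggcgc
Irs2: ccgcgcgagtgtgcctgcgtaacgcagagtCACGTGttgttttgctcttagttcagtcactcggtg
Igfbp2: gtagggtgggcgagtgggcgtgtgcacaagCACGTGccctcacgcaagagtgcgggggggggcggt
Around the E-box Irs1 and Irs2 share the run GTCACGTGTT of 10 bases, which 0.0761% of 32851 windows hold on either strand. The run was taken from these same windows, which are among those counted, so this share is a description and no test. Of the 11 windows of the 10 genes, 3 hold CACGTG (Irs1, Irs2 and the first window of Igfbp2), against 7.15% of all windows. A match of letters is a description and not a measured binding site.

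Irs1 differed between the knockout libraries. Its CPM was 69.8, 64.3 and 59.6 (WT replicates 1 to 3) and 105, 107 and 62.5 (knockout replicates 1 to 3). Knockout replicates 1 and 2 were above every WT library, whereas knockout replicate 3 lay among them. With all libraries the estimate was 0.50 on the log2 scale (SE 0.205, edgeR adjusted p = 0.101). Irs1 was higher in knockout cells by 0.72 on that scale once knockout replicate 3 was left out (SE 0.0714, edgeR adjusted p = 3.22e-05). Exons of Gm9747 on the opposite strand overlap those of Irs1, and whether the counting used the strand is not given in the sources used here. Gm9747 held 32.8 to 36.6 CPM in WT and 50.2 to 55.6 CPM in knockout libraries.

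Irs2 did not follow this pattern. Its CPM was 64.2, 49.9 and 53.9 in WT and 59.6, 63.2 and 72.3 in knockout replicates 1 to 3, with overlapping genotypes. Its log2 fold change was 0.22 (95% interval -0.072 to 0.50, edgeR adjusted p = 0.206) and 0.13 without knockout replicate 3. Of the summed Irs1 and Irs2 FPKM, Irs1 made up 44.2%, 48.3% and 44.1% in the WT libraries (replicates 1 to 3) and 56.2%, 55.6% and 37.3% in the knockout ones. Knockout replicates 1 and 2 thus had more Irs1 than Irs2 per length and the other 4 libraries less.

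**Figure D2:**
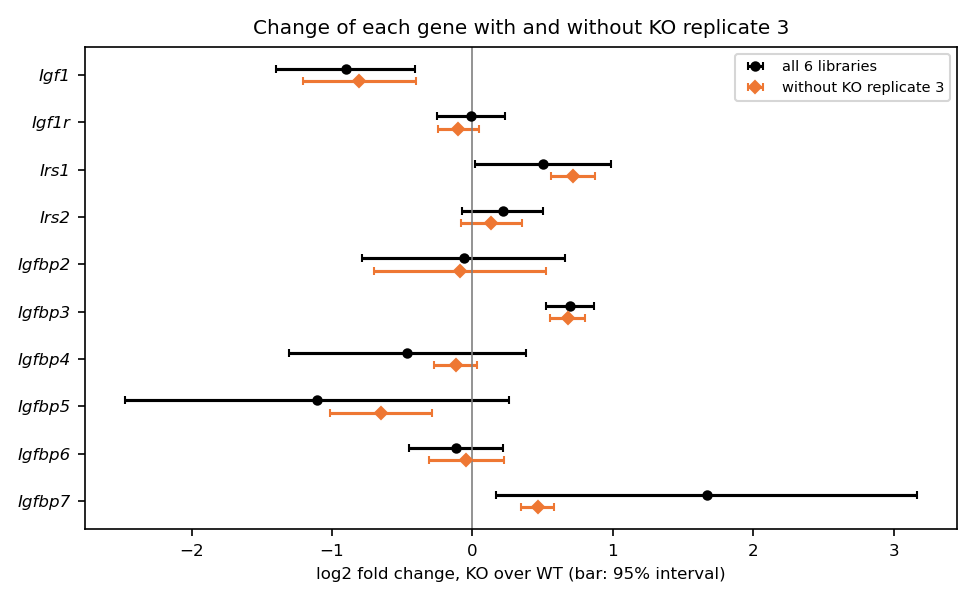
Log2 fold change of knockout over WT (x axis) for each of the 10 genes with its 95% interval, from all 6 libraries (black circles) and without knockout replicate 3 (orange diamonds). Igf1 and Igfbp3 stay in place, while the intervals of Irs1, Igfbp4, Igfbp5 and Igfbp7 are much narrower without that library.

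Among the binding proteins, the genes for IGFBP3, IGFBP4 and IGFBP5 hold a TATA-like run close to the start, and these 3 promoters are shown because their transcripts had unlike values in the knockout libraries. The stretches are again RefSeq windows of GRCm38.p6 on the strand of the gene, end at the RefSeq start or before it, and have the TATA-like letters in capitals. For Igfbp3 (minus strand, chr11:7213924-7213983) these are TATATA at 30 bases before the start, for Igfbp4 (plus strand, chr11:99041186-99041243) TATAAA at 28 bases, and for Igfbp5 (minus strand, chr1:72874880-72874946) TATTTAA at 51 bases.
Igfbp3: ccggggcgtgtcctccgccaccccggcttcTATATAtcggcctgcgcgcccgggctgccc
Igfbp4: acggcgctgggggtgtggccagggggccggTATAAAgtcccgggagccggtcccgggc
Igfbp5: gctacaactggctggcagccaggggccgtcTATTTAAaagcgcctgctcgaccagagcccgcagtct
The Igfbp3 and Igfbp4 runs start 25 to 40 bases before the start on the strand of the gene, where 2.85% of all windows hold any of these 3 runs. Counted from its RefSeq start, the Igfbp5 run lies outside that range. GENCODE places the start of Igfbp5 at 72874884, which is nearer to this run, and places were not counted from GENCODE starts. On either strand and at any place in the window, 13.6% of all windows hold TATAAA, 4.51% TATTTAA and 5.67% TATATA. The letters TATAAA were also found on the opposite strand of the Igfbp6 window, 148 bases before the start. Other letters were searched in the same way.

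The GC box letters GGGCGG were in 5 of the 11 windows, against 35.7% of all windows, the AP-1 letters TGACTCA in 1 (the second window of Igfbp2), against 5.2%, and the FOXO letters GTAAACA in 0, against 3.65%.

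Igfbp3 encodes the main carrier of IGFs in the circulation, which in tissues can also restrain them. It lies on the minus strand of chromosome 11 (7206086 to 7213923). Its CPM was 462, 439 and 455 (WT replicates 1 to 3) and 750, 695 and 752 (knockout replicates 1 to 3). Every knockout library was well above every WT library, as for 26.5% of all genes, and knockout replicate 3 did not differ from its group here. Igfbp3 rose from 452 ± 11.6 to 732 ± 32.4 CPM (mean ± SD, n = 3 each), a log2 fold change of 0.70 (SE 0.0707, edgeR adjusted p = 0.00312). The fold change of 1.62 was under the limit of 2 in the study. Without knockout replicate 3 the log2 fold change was 0.68 (edgeR adjusted p = 8.92e-06). With a term for the Y-linked transcripts, which leaves knockout replicate 2 against WT, it was 0.62.

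Igfbp4 encodes a binding protein that holds IGFs until it is cleaved. It lies on the plus strand of chromosome 11 (99041244 to 99054392). Its CPM was 368, 338 and 355 in WT and 302, 348 and 119 in knockout replicates 1 to 3. Knockout replicate 2 lay within the WT range, knockout replicate 1 below it and knockout replicate 3 far below it. Igfbp4 had a log2 fold change of -0.46 (SE 0.355, edgeR adjusted p = 0.342) and -0.12 without that library (95% interval -0.27 to 0.032). With a term for the Y-linked transcripts it was -0.022.

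Igfbp5 encodes a binding protein that attaches to extracellular matrix. It lies on the minus strand of chromosome 1 (72857932 to 72874884). Its CPM was 379, 453 and 393 in WT and 197, 322 and 49.1 in knockout replicates 1 to 3. All 3 knockout libraries were below WT but differed widely among themselves. With all libraries the log2 estimate was -1.11 (SE 0.574, edgeR adjusted p = 0.177), and it was -0.34 with a term for the Y-linked transcripts and -1.72 without knockout replicate 2. When knockout replicate 3 was left out, Igfbp5 was lower by a log2 fold change of -0.65 (SE 0.162, edgeR adjusted p = 0.00772).

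Igfbp2, whose product can bind integrins, is the neighbour of Igfbp5 on chromosome 1 (72824503 to 72852474, plus strand), and 5457 bases separate the 3′ ends of the genes. Its CPM was 69.6, 58.5 and 70.0 in WT and 35.2, 88.7 and 65.6 in knockout replicates 1 to 3. Unlike for Igfbp5, the knockout libraries lay on both sides of WT, and the lowest was knockout replicate 1. Its estimate on the log2 scale was -0.063 (95% interval -0.79 to 0.66, edgeR adjusted p = 0.887). Leaving out knockout replicate 3 gave -0.089, and leaving out knockout replicate 1 gave 0.23.

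Igfbp6 encodes a binding protein that prefers IGF2. It lies on chromosome 15 (102144362 to 102149511, plus strand), and its genotypes overlapped with 38.7, 50.8 and 52.7 CPM in WT and 48.6, 43.3 and 39.2 in knockout replicates 1 to 3. Igfbp6 had a log2 fold change of -0.12 (95% interval -0.45 to 0.22, edgeR adjusted p = 0.547), and of -0.043 without knockout replicate 3.

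Igfbp7 encodes a secreted relative that binds IGFs weakly. It lies on chromosome 5 (77349240 to 77408041, minus strand). Its CPM was 92.4, 91.2 and 89.8 (WT replicates 1 to 3) and 127, 124 and 617 (knockout replicates 1 to 3). Every knockout library was above every WT library, and knockout replicate 3 was 4.91-fold above the geometric mean of the other knockout libraries. Igfbp7 had a log2 fold change of 1.67 with all libraries (SE 0.631, edgeR adjusted p = 0.0837) and of 0.44 with a term for the Y-linked transcripts, and the adjusted p was 0.0278 in edgeR's exact test and 0.0499 without knockout replicate 1. With knockout replicate 3 left out, Igfbp7 was higher by 0.46 on the log2 scale (SE 0.0531, edgeR adjusted p = 7.39e-05). Exons of Polr2b on the opposite strand overlap those of Igfbp7, and Polr2b held 114 to 125 CPM in WT and 118, 115 and 63.8 in knockout replicates 1 to 3.

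With all 6 libraries Igfbp7 had the largest absolute log2 fold change of the 10 genes, while without knockout replicate 3 those of Igf1, Irs1, Igfbp3 and Igfbp5 were larger, and with the term for Y-linked transcripts those of Irs1 (0.73), Igfbp3 (0.62) and Igf1 (-0.58) were. Among 12606 genes with a mean of at least 1 CPM, those whose log2 CPM followed it most closely over the 6 libraries were Ripk2, Ctps and Tmem50a, with Pearson's r of 0.999, 0.998 and 0.998. As a description, r rests here mostly on the high value of knockout replicate 3, where Ripk2 held 88.8 CPM against 11.5 to 16.8 in the other 5 libraries.

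Igfbp4, Igfbp5 and Igfbp7 were at least 2-fold away from both other knockout libraries in knockout replicate 3, which makes 3 of the 10 genes, against 8.79% of all genes. Igfbp4 and Igfbp5 were low there and Igfbp7 was high. In knockout replicates 1 and 2, 0 of the 10 genes stood apart in this way, against 1.03% and 0.867% of all genes. Knockout replicate 3 also had the lowest sum of the 10 fibroblast markers, 21612 CPM against 30325 to 39837 in the other libraries. Col3a1 was at 1898 CPM there against 5021 to 6851, and Lum at 21.3 against 77.0 to 162. Col1a1, Col1a2, Pdgfra and Thy1 were lowest there too. Dcn was highest there, at 243 CPM against 159 to 201. Vim (3610 CPM against 2655 to 3653), Pdgfrb (235 CPM) and Fn1 (4045 CPM) lay within the range of the other libraries. Knockout replicate 3 held 32.3 summed CPM of 6 endothelial markers, against 48.6 to 67.2, and this sum was mostly Tek (30.7 CPM, against 46.6 to 64.5). Pecam1, Cdh5, Tie1 and Emcn were at most at 0.525 CPM in any library. In knockout replicate 3 the sum of 5 muscle lineage markers was 1775 CPM, mostly Acta2, against 656 to 1353 in the other libraries. Tagln was also highest there, whereas Des was lowest (4.19 CPM against 7.08 to 12.4). Knockout replicate 3 held 3.81 summed CPM of 6 epithelial markers, against 24.4 to 46.2, and 252 of the macrophage markers, against 47.8 to 95.9. Of the macrophage sum 158 CPM was Lyz2. Cd68 (8.56 CPM) and Fcgr3 (1.43 CPM) lay within the range of the other libraries, and the rest of that list was highest in knockout replicate 3. Of the defining markers Adipoq, Myod1 and Myog were at or near 0 in every library. Among other adipocyte markers, Lpl held 22.1 to 35.0 CPM in WT and 9.16 to 15.4 in knockout libraries (log2 fold change -1.20, edgeR adjusted p = 0.0130). Cebpa held 21.3 to 25.5 and 4.19 to 8.73 CPM (log2 fold change -1.80, edgeR adjusted p = 0.00561). Without knockout replicate 3 these log2 fold changes were -1.41 and -1.55 (edgeR adjusted p = 0.000213 and 7.32e-06). That of Fabp4 was -0.26 with all libraries (edgeR adjusted p = 0.656). The part of these cell types in the values of knockout replicate 3 was not tested.

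The sum of the 6 binding protein genes was 590 to 622 FPKM in WT libraries and 705, 746 and 1281 FPKM in knockout replicates 1 to 3. Without Igfbp7 the sums were 489 to 520 and 565, 609 and 511 FPKM. Most of the excess in knockout replicate 3 was thus Igfbp7. Igfbp3 made up 35.1% to 36.8% of the sum in WT libraries and 50.6%, 44.1% and 27.9% in knockout replicates 1 to 3. The share of Igfbp5 was 9.71% to 11.7% in WT and 4.19%, 6.44% and 0.561% in knockout libraries, and that of Igfbp4 was 18.7% to 20.5% and 14.4%, 15.3% and 3.25%. In knockout replicate 3 Igfbp7 made up 60.1%, against 16.3% to 19.8% in the other 5 libraries.

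**Figure D3:**
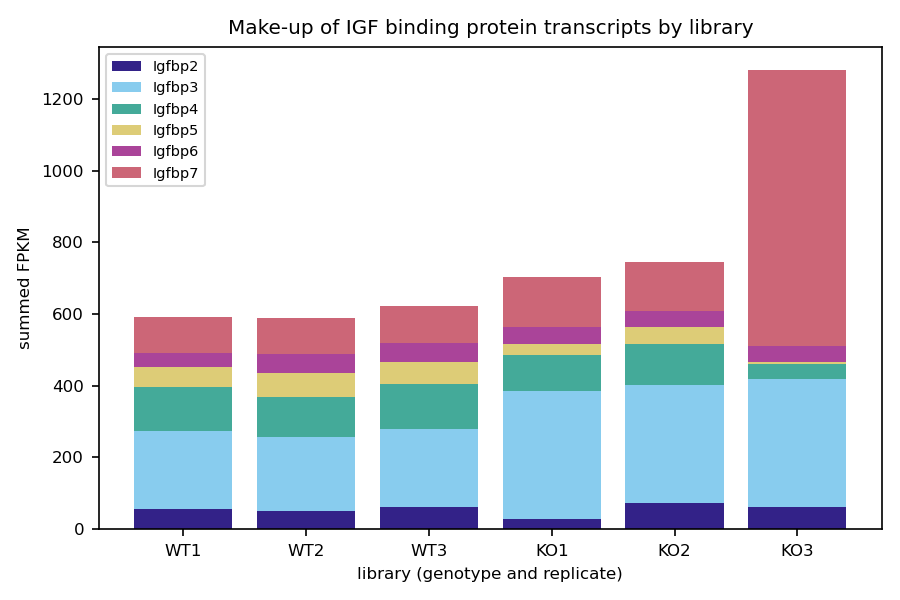
Summed FPKM of the 6 binding protein genes (y axis, from 0) in each library, stacked by gene. The WT bars are alike at 590 to 622 FPKM, Igfbp3 is the widest band in all libraries but knockout replicate 3, and in knockout replicate 3 Igfbp7 makes up 60.1% of 1281 FPKM.

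The rest of the pathway was read from 7 lists with 77 genes tested. At an edgeR adjusted p below 0.05 there were 10 lower and 21 higher in knockout cells, together 40.3% against 33.0% of all genes, and 13 were lower and 30 higher of 78 genes without knockout replicate 3, where 24.2% of all genes were lower and 23.9% higher. At the thresholds of the study Socs2 was downregulated and Ctsd, Grb14 and Rictor were upregulated, 4 of 77 genes against 3.59% of all genes. Without knockout replicate 3 Ctsd and Rictor were below the 2-fold limit, and Irs4 passed all 3 thresholds.

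**Figure D4:**
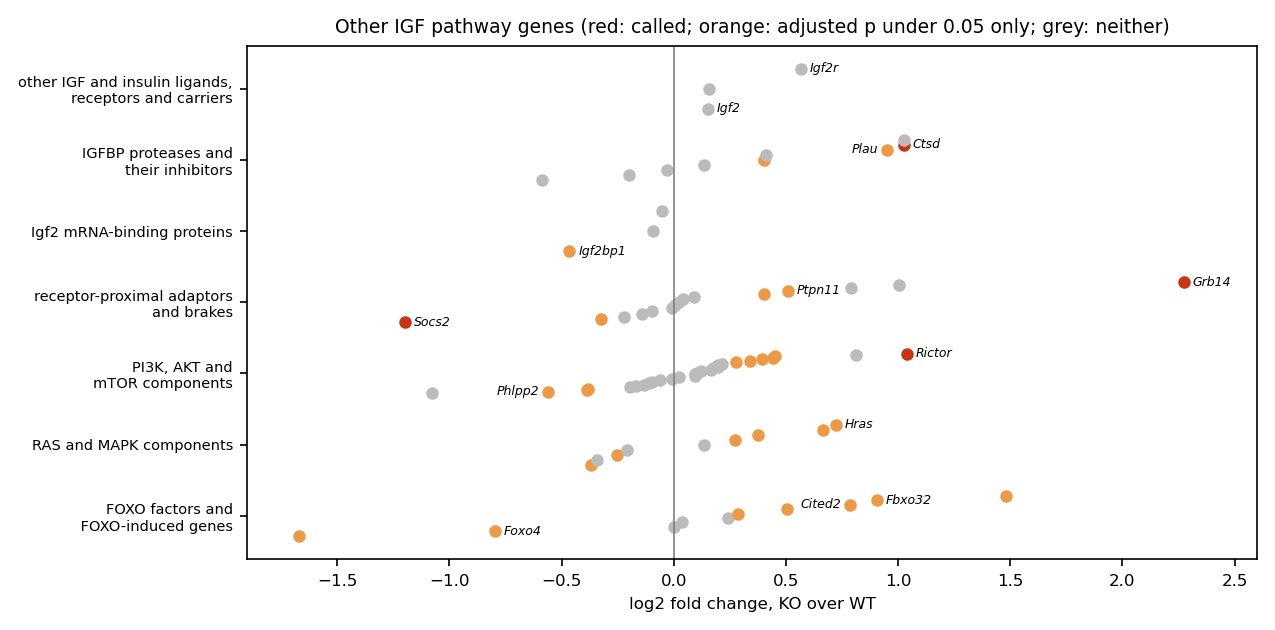
Log2 fold change of knockout over WT (x axis) of the 77 tested genes in 7 lists of IGF pathway genes (rows), 1 point per gene, in red where called at the thresholds of the study, in orange where only the adjusted p was under 0.05 and in grey otherwise. Grb14 lies furthest to the right at 2.27, and Socs2 is the called gene on the left at -1.20.

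In the list of 9 genes of binding protein cleavage, 3 rose and 0 fell at an adjusted p under 0.05, against 33.0% of all genes in either direction. Without knockout replicate 3, 4 were higher and 0 lower, against 48.1%. The median log2 fold change of the list was 0.40. Ctsd, the lysosomal protease cathepsin D, rose from 598 ± 34.2 CPM to 1044, 1094 and 1512 in knockout replicates 1 to 3, a log2 fold change of 1.03 (edgeR adjusted p = 0.00620), and of 0.84 without knockout replicate 3. Plau and Plat, the plasminogen activator genes, rose by 0.95 and 0.40 on the log2 scale (edgeR adjusted p = 0.00205 and 0.0382), and by 0.96 and 0.49 without knockout replicate 3. Pappa encodes the protease that cleaves IGFBP4 and IGFBP5, and its log2 fold change was 0.41 with overlapping libraries (edgeR adjusted p = 0.0586). Without knockout replicate 3 it was 0.40 (edgeR adjusted p = 0.0216). The genes of its inhibitors, Stc1 and Stc2, had log2 fold changes of 1.03 and -0.028 (edgeR adjusted p = 0.107 and 0.931), and of 0.50 and -0.28 without knockout replicate 3 (edgeR adjusted p = 0.168 and 0.116). Of the genes for proteins that bind Igf2 mRNA, Igf2bp1 fell by 0.46 on the log2 scale (edgeR adjusted p = 0.0116), and Igf2bp2 and Igf2bp3 had log2 fold changes of -0.092 and -0.052 (edgeR adjusted p = 0.294 and 0.742). Leaving out knockout replicate 3 gave -0.43, -0.075 and 0.051 for Igf2bp1, Igf2bp2 and Igf2bp3, the first alone past 0.05.

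Among 15 adaptors and brakes next to the receptor, 2 fell and 3 rose at an adjusted p under 0.05, against 33.0% of all genes in either direction. Leaving out knockout replicate 3 gave 2 lower and 5 higher, against 48.1%. Socs2, a feedback inhibitor of growth hormone and cytokine signalling, fell from 41.3, 40.4 and 38.6 CPM in WT to 17.4, 19.0 and 16.0 in knockout replicates 1 to 3 (log2 fold change -1.20, SE 0.0921, edgeR adjusted p = 0.00178). Grb14, an adaptor that inhibits the insulin receptor, rose from 19.6, 14.5 and 17.2 CPM to 64.7, 61.0 and 122 (log2 fold change 2.27, SE 0.293, edgeR adjusted p = 0.00441). Both genes were far apart between the genotypes, and without knockout replicate 3 their log2 fold changes were -1.14 and 1.88. Ptpn11, which encodes the phosphatase SHP2, rose by 0.51 on the log2 scale (edgeR adjusted p = 0.00840), and by 0.43 without that library. Grb10, a related adaptor to Grb14, had 1220 to 1286 CPM in WT and 1169, 1275 and 778 in knockout replicates 1 to 3, a log2 fold change of -0.22 (edgeR adjusted p = 0.362), and of -0.036 without knockout replicate 3.

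Of 28 genes of the PI3K, AKT and mTOR branch, 3 fell and 6 rose at an adjusted p under 0.05, against 33.0% of all genes in either direction, with a median log2 fold change of 0.099. Leaving out knockout replicate 3 gave 5 lower and 9 higher, against 48.1%. Rictor, which encodes the defining subunit of mTOR complex 2, rose from 87.2, 81.5 and 73.7 CPM in WT to 145, 153 and 200 in knockout replicates 1 to 3 (log2 fold change 1.04, SE 0.139, edgeR adjusted p = 0.00484). It was 0.89 without knockout replicate 3. Phlpp2, which encodes a phosphatase of AKT, fell by 0.56 and Pik3r1, which encodes the main regulatory subunit of PI3K, rose by 0.45 on the log2 scale (edgeR adjusted p = 0.00770 and 0.0167), with log2 fold changes of -0.54 and 0.38 when knockout replicate 3 was left out. In the RAS and MAPK branch 2 of 9 genes fell and 4 rose at an adjusted p under 0.05, against 33.0% of all genes in either direction. Without knockout replicate 3, 3 were lower and 4 higher, against 48.1%. Hras and Braf rose by 0.72 and 0.37 and Nras fell by 0.37 on the log2 scale (edgeR adjusted p = 0.0154, 0.0164 and 0.0143), with log2 fold changes of 0.54, 0.41 and -0.36 when knockout replicate 3 was left out.

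The last list held 4 FOXO factor genes and 6 genes known to be induced by FOXO factors. Of these 10 genes 2 fell and 5 rose at an adjusted p under 0.05, the same counts as without knockout replicate 3, where more of all genes passed (48.1% against 33.0%). Foxo4 fell from 54.6 ± 0.0916 CPM to 31.4 ± 3.05 CPM (mean ± SD, n = 3 each), a log2 fold change of -0.80 (edgeR adjusted p = 0.00349). Fbxo32, a ubiquitin ligase gene, and Cited2, a transcriptional cofactor gene, rose by 0.91 and 0.79 on the log2 scale (edgeR adjusted p = 0.00349 and 0.00533), with all knockout libraries above WT for both. Leaving out knockout replicate 3 gave -0.82 for Foxo4, 0.91 for Fbxo32 and 0.73 for Cited2.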

How the data were processed

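The authors prepared stranded mRNA libraries, used HISAT2 2.1.0 for alignment to GRCm38/mm10 and deposited raw counts per gene, whole numbers without normalization. The counting program and its strand setting are not given in the sources used here. FPKM values were computed by the authors with Cufflinks 2.1.1 and deposited for 12633 genes, beside fold changes and FDR of their own comparison, which were not used.

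Counts were analysed in R 4.3.3 with edgeR 4.0.16: TMM normalization, filterByExpr, and the quasi-likelihood test of 3 knockout against 3 WT libraries without covariates, with Benjamini-Hochberg adjustment over 13386 genes. Each standard error (SE) was taken as |log2 fold change| over √F. CPM uses TMM-normalized library sizes, and log2 CPM a pseudocount of 2 counts. A floor of 3 counts equals 0.142 to 0.143 CPM, for counting error only. Called genes had FDR below 0.01, more than a log2 change of 1 in either direction, and a genotype mean above 1 FPKM. Alternatives were RLE and library totals, other filters, DESeq2 1.42.0, edgeR's exact test, a replicate block, a term for Y-linked transcripts, and each library left out. The tests were checked on simulated counts. Positions come from GENCODE M21 and sequences from RefSeq (GRCm38.p6), where all 10 genes matched.

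The 10 genes and the lists were chosen with earlier results of these data known. The text names the 10 genes, Rnf20, ligands, receptors, genes of binding protein cleavage and Igf2 mRNA binding, Grb10, called genes, and up to 3 genes with the lowest adjusted p per list. For Igfbp7, with the largest change when all 6 libraries are used, the 3 genes most correlated with it are named. Markers, overlapping genes, Igfals and Irs4 were added after their values were seen. Gene lengths came with the deposited counts.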

Additional observations from a re-analysis of the deposited data

How the results depend on the processing

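Each library left out in turn, 2 other scalings, 2 other filters, DESeq2, the exact test, a replicate block and a term for Y-linked transcripts gave 140 values for the 10 genes, of which 125 kept their direction and their side of an adjusted p of 0.05. None of the 10 met the thresholds of the study under any of these. At an adjusted p under 0.05 there were 2 genes with all libraries and 1 to 5 over the fits without a library. In the fit with the term for Y-linked transcripts only knockout replicate 2 is compared with WT. Whether Igf1 and Igfbp3 pass 0.05 apart from the Y-linked difference thus cannot be decided, and no passing counts are given for that fit. The log2 fold change of Igf1r ranged from -0.099 to 0.048 over the fits without a library and that of Igfbp2 from -0.38 to 0.23, and Igfbp2 was at 0.43 with the Y-linked term.

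Over all genes, 480 were called, with 982 by DESeq2, 973 by the exact test, and 1 to 791 without a library. At an adjusted p under 0.05 there were 4413, with 109 under the Y-linked term and 1396 to 6510 without a library. With library totals only, 2684 were lower and 1750 higher, against 2218 and 2195. The deviations of samples with the same replicate number correlated by -0.0656, 0.0366 and 0.0109. With knockout replicate 3 far from its group, these values cannot exclude a pairing of the samples. With the replicate block 0 genes were called and 2875 had an adjusted p under 0.05 (5552 an unadjusted p under 0.05), and 2 of the 10 genes were past 0.05. The cause of these shifts was not tested.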

Other observations

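FPKM and counts differed for Nras, a RAS gene, in 1 library. Its CPM was 77.6 to 87.6 in WT and 61.9 to 64.0 in knockout libraries, without overlap. The FPKM of the authors was 26.3 to 28.1 in WT libraries and 49.2, 22.3 and 25.5 in knockout replicates 1 to 3, so that knockout replicate 1 lay above WT and the others below it. The cause was not tested.

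Irs4, a docking protein gene of low level that was singled out after its values were seen, held 3.70 to 4.47 CPM in WT and 11.9, 11.3 and 1.57 in knockout replicates 1 to 3. Knockout replicates 1 and 2 were above and knockout replicate 3 was below every WT library. The 95% interval of its log2 fold change was -0.53 to 2.54 with all libraries (edgeR adjusted p = 0.263), and the log2 fold change was 1.49 without knockout replicate 3 (edgeR adjusted p = 3.44e-05).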
